A study of Saccharomyces cerevisiae with 21 samples.

Results

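The comparison described here set the yeast strain spt6-R against its wild type (WT), as 3 libraries of each, which are 6 of the 21 libraries of the series. The study compared 7 strains of budding yeast, Saccharomyces cerevisiae, with 3 libraries each, and the 6 libraries were taken by the genotype given in their labels. The spt6-R strain carried the allele spt6-R at SPT6. The WT strain was the common control. Another pair of strains, with 3 libraries each, is used at the end: spt6-KK, with another SPT6 allele, and rpb1-FSP, with an allele of RPB1, the gene that yeast annotation calls RPO21. All of these strains were sampled in logarithmic growth at 30 °C in rich medium, and total RNA depleted of ribosomal RNA was sequenced as stranded read pairs. Which residues spt6-R changes is not stated in the labels. These give 1 strain number per genotype, so the allele and anything else that differs between those 2 isolates cannot be told apart. Whether the 3 libraries of each strain were grown separately is not labelled, so the p-values cover the spread among libraries, which may be technical.

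Spt6 is a histone chaperone that accompanies elongating RNA polymerase II and restores nucleosomes behind it. Its tandem SH2 domain binds a phosphorylated linker in Rpb1, the largest polymerase subunit, between the body of the enzyme and its C-terminal repeats. Loss of Spt6 function in yeast is known for transcription from promoters inside genes, for derepression of SER3, and for changed histone occupancy over active genes.

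The 3 spt6-R libraries held 6404006, 5779941 and 7197503 reads counted over whole genes, against 7231414, 6850069 and 4860861 in the 3 WT libraries. In the table of sense reads over the middle of genes, ribosomal RNA took between 3.40% and 6.21% of counts in spt6-R and between 7.10% and 19.1% in WT. Over whole genes it took between 1.5% and 1.65% in spt6-R and between 1.51% and 1.61% in WT. On the first principal component of the 21 libraries, which held 42.2% of the variance, spt6-R libraries lay at -3.30, 0.20 and -1.50 and WT libraries at -19.0, -24.4 and -21.0. The 7 a-specific genes summed to between 2478 and 2747 CPM (read counts scaled to a common library size with TMM factors) in spt6-R and between 1640.1 and 1835 CPM in WT, while the 3 alpha-specific genes summed to between 40.6 and 52.6 CPM in spt6-R and between 25.1 and 37.8 CPM in WT.

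Compared with WT, spt6-R had more mRNA of IMD2, SER3, URA8, BIO2, MET3 and ELO1, and of 11 of 41 general stress genes. It had less mRNA of 70 of 137 ribosomal protein genes, of 37 of 70 ribosome biogenesis genes and of SPT6 itself. More and less are relative to the counted reads of a library, so a change of all mRNA together would not show. Of 5618 genes tested, 477 passed edgeR's quasi-likelihood test at a false discovery rate of 0.05, which is 8.49%. Among them 226 rose (4.02%) and 251 fell (4.47%). Large changes were almost all rises: 63 genes rose at least 2-fold (1.12%) and 2 fell at least 2-fold (0.0356%), which were FLO11 and BRR6. The 3 spt6-R and 3 WT libraries did not overlap for 470 of the 477 genes called, which is 8.37% of genes tested, and they did not overlap for 2078 of all genes tested, or 37%. At an unadjusted p under 0.05 there were 1413 genes, or 25.2%. The number called depended on single libraries. It was 131 without spt6-R replicate 2, 149 without spt6-R replicate 3, 110 without WT replicate 2 and 160 without WT replicate 3, against 438 without spt6-R replicate 1 and 489 without WT replicate 1. In all 6 of these fits 93 genes stayed called, 50 that rose and 43 that fell. Where a call named below was lost in one of these fits, the fits are given with it.

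**Figure D1:**
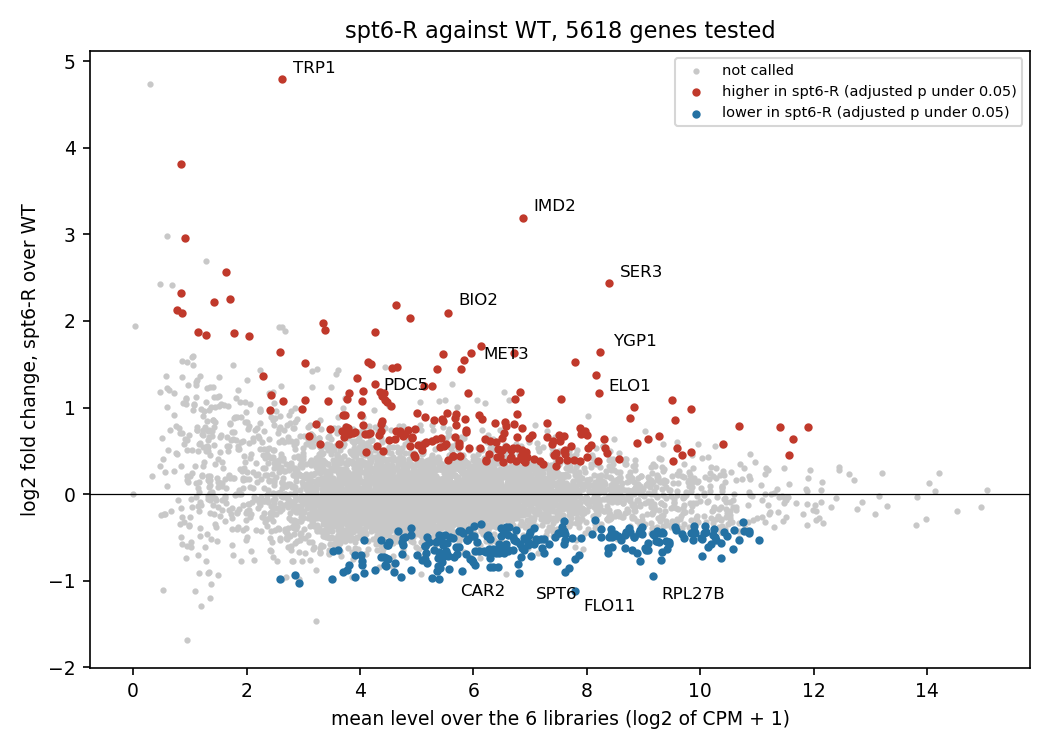
Log2 fold change of spt6-R over WT (vertical axis) against mean level over the 6 libraries (horizontal axis, log2 of CPM + 1), with 1 point per gene tested. The 226 genes that rose are red and the 251 that fell are blue. Rises reach 4.80 at TRP1 and 3.19 at IMD2 among the genes labelled, while no called fall lies below FLO11 at -1.11.

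SPT6 (YGR116W, chromosome VII:720409-724764, plus strand, R64) was measured first because the strain carries an allele of it. Its mRNA had 137, 143 and 150.4 CPM in spt6-R, against 232, 279.8 and 288 CPM in WT. All 3 spt6-R libraries lay below all 3 WT libraries. The log2 fold change was -0.89 ± 0.16 (standard error of the edgeR contrast, as for all log2 fold changes here; adjusted p = 0.00245), and the call stayed in all 6 fits that left out 1 library. A change of base within the gene is not visible in counts, so the level neither checks nor contradicts the allele. Genes within 5 kb of SPT6 were DAM1, SHY1, YGR111W, YGR117C, NUP57 and RPS23A. Of these RPS23A, a ribosomal protein gene, fell by 0.63 ± 0.12 on the log2 scale (adjusted p = 0.00359), and the other 5 were not called. RPO21, which encodes Rpb1, had 564, 556 and 589 CPM in spt6-R and 548, 531 and 532 CPM in WT. Its difference of 0.09 ± 0.12 did not pass the test (adjusted p = 0.71).

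Other genes of the transcription apparatus had mostly negative fold changes, and those called fell. Among 38 elongation factors and histone chaperones, CHD1, which encodes a nucleosome remodeller, was the 1 that fell, and none rose. CHD1 had 76.3, 70.4 and 80.7 CPM in spt6-R, against 107, 121 and 126 CPM in WT (log2 fold change -0.63 ± 0.16, adjusted p = 0.0209). Its call was lost without spt6-R replicate 2 (adjusted p = 0.106), spt6-R replicate 3 (0.0568), WT replicate 2 (0.0908) or WT replicate 3 (0.0844). The median over the 38 genes was -0.20 and 35 of them had negative fold changes, beside a median of -0.02 over all genes tested. SPN1, which encodes a direct partner of Spt6, had a log2 fold change of -0.24 ± 0.19 (adjusted p = 0.452). Of 12 RNA polymerase II subunits 4 fell, RPB5, RPO26, RPB9 and RPB8, by 0.48, 0.48, 0.47 and 0.38 on the log2 scale. The calls of RPB5, RPO26 and RPB8 were lost in each of the 6 fits, with adjusted p-values up to 0.183, 0.203 and 0.162, and that of RPB9 stayed only without spt6-R replicate 1 or WT replicate 1. By mid-gene counts 1 of the 12 fell. Of the 12 subunits 10 had negative and 2 had positive fold changes, with a median of -0.31. Of 11 histone genes 2 fell, all 11 had negative fold changes, and the median was -0.23. Over all genes tested 4.47% fell. HHT1, a histone H3 gene, had 150.2, 169.6 and 155 CPM in spt6-R and 255, 231 and 218 CPM in WT (-0.57 ± 0.14, adjusted p = 0.0164), a call lost without spt6-R replicate 3 (0.0668) or WT replicate 2 (0.0629). HHF2, a histone H4 gene, fell by 0.46 ± 0.13 (adjusted p = 0.0338), a call that stayed only without WT replicate 3.

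The rises included genes whose mRNA is set by the choice of transcription start or by transcription across the promoter. IMD2 encodes IMP dehydrogenase of guanine nucleotide synthesis. In cells with ample GTP its transcription is known to begin at upstream sites and to stop early, and in GTP shortage at a downstream site that gives mRNA. URA8 encodes a CTP synthase. SER3 encodes a phosphoglycerate dehydrogenase of serine synthesis and is known to be repressed in rich medium by the noncoding SRG1 transcript, which places nucleosomes over its promoter and needs Spt6 for that. The 250 bases before the start codon of each are printed as the sequence next to each coding region. Where transcripts start in them was not located, and SRG1 starts farther upstream of SER3. They are from the R64 genome, 5′ to 3′ on the coding strand, which is the plus strand for all 3, at chrVIII:554146-554395 for IMD2, chrV:322436-322685 for SER3 and chrX:620504-620753 for URA8. No part was singled out in them, so none is in capitals.
IMD2: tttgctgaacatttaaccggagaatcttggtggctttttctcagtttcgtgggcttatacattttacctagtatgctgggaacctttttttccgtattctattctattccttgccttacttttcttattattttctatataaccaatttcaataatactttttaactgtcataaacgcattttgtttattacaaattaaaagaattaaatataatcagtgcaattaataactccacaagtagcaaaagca
SER3: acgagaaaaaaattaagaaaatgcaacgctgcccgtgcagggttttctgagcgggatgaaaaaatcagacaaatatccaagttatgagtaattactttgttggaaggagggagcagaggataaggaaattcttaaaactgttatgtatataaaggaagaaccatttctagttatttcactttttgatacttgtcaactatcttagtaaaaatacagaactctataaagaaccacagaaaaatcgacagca
URA8: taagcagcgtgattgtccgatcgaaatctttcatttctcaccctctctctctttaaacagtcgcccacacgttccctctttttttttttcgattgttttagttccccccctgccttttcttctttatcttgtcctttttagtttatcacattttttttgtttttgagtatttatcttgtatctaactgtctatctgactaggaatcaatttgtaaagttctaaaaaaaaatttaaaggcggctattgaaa

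IMD2 had 307, 373 and 383 CPM in spt6-R, against 35.3, 29.8 and 51.9 CPM in WT. The groups lay far apart, with the lowest spt6-R library above every WT library, and the log2 fold change was 3.19 ± 0.17 (adjusted p = 1.31e-10). SER3 had 526, 985 and 897 CPM in spt6-R, against 165, 111 and 169 CPM in WT. The spt6-R libraries varied among themselves, with replicate 1 lowest, and still lay above all WT libraries (2.44 ± 0.28, adjusted p = 2.99e-05). URA8 had 141, 185 and 181 CPM in spt6-R, against 71.0, 67.2 and 85.7 CPM in WT (1.18 ± 0.15, adjusted p = 5.77e-05). These 3 calls were kept in all 6 fits that left out 1 library. The other 2 genes of the list did not pass: URA2, the first enzyme of pyrimidine synthesis, had 0.28 ± 0.14 (adjusted p = 0.213) and ADE12, adenylosuccinate synthase, had 0.35 ± 0.33 (adjusted p = 0.544). The list's median was 1.18, but its members were known from earlier work on these data, so that direction is a description.

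The relatives of these genes differed less. IMD4, another IMP dehydrogenase gene, had 1609, 1617 and 1725 CPM in spt6-R, against 963, 1179 and 1180.0 CPM in WT (0.58 ± 0.15, adjusted p = 0.0234). That call was kept only without spt6-R replicate 1, and its adjusted p reached 0.0851 without spt6-R replicate 3. IMD3 had a log2 fold change of 0.35 ± 0.13 that did not pass (adjusted p = 0.0892). The IMD genes are similar in sequence, and how reads that fit several of them were counted is not given in the sources used here, so levels of each are uncertain. SER33, the other phosphoglycerate dehydrogenase gene, had 126, 172 and 167 CPM in spt6-R and 141, 110.1 and 123 CPM in WT, which overlap (0.32 ± 0.17, adjusted p = 0.241).

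Of 10 genes known for promoters inside their coding sequence in Spt6 mutants, none was called in either direction. FLO8, a transcription factor gene and the standard reporter of such initiation, had -0.09 ± 0.15 (adjusted p = 0.77), and STE11, a kinase of the mating pathway, had 0.12 ± 0.20 (adjusted p = 0.765). The highest was PCA1, a metal transporter gene, at 0.45 ± 0.17 (adjusted p = 0.102), and the list's median was -0.12. By edgeR 1 of the 10 had an unadjusted p under 0.05, DESeq2 called 0, and 1 rose without spt6-R replicate 1. Counts over a gene do not locate transcript starts, and a short transcript that covers part of a gene adds only part of its counts.

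**Figure D2:**
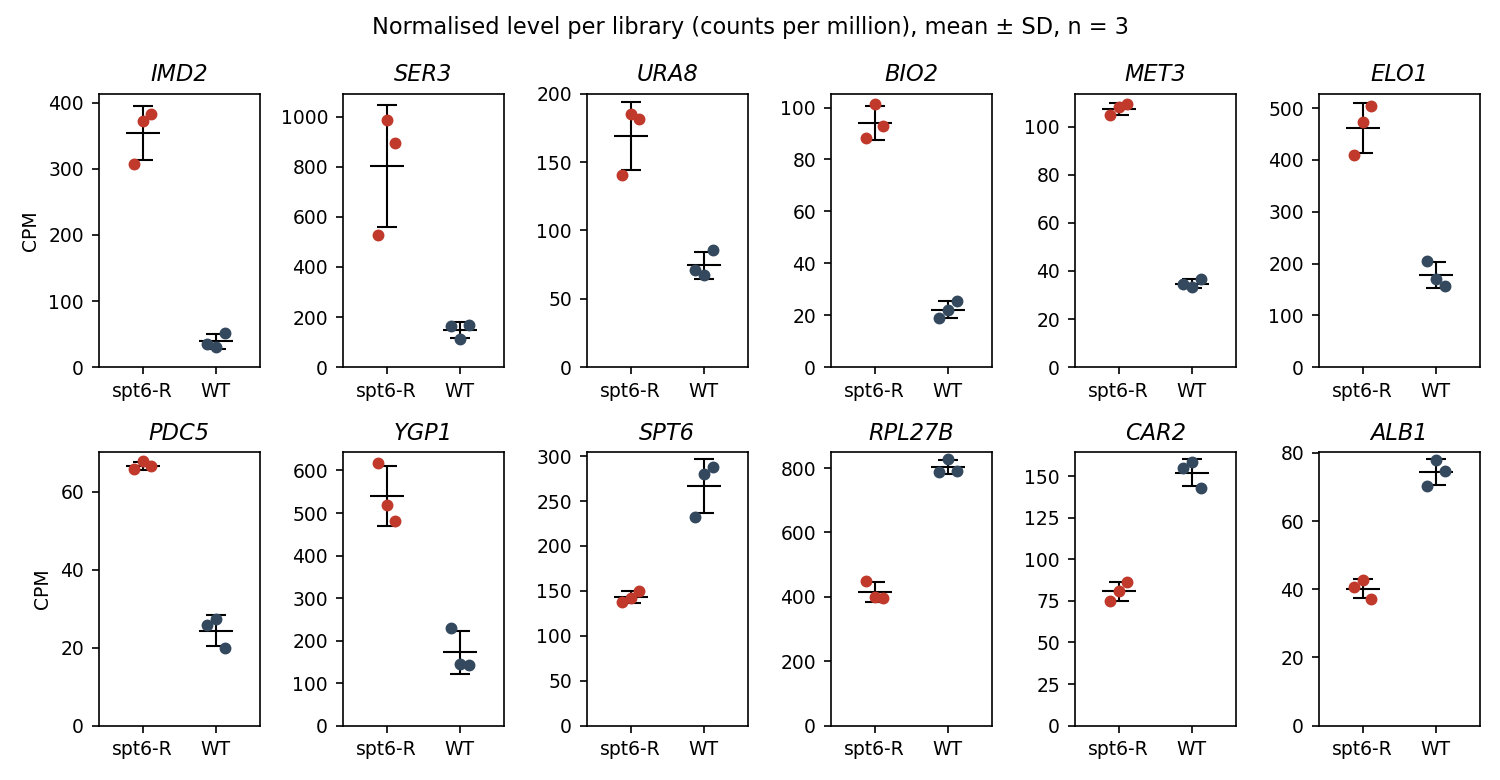
Normalised level (CPM, vertical axis from 0) of 12 genes in each of the 3 spt6-R libraries (red, left) and 3 WT libraries (dark, right), with mean ± SD. In every panel the groups are separate: IMD2 lies at 307 to 383 CPM in spt6-R and at 29.8 to 51.9 CPM in WT, and RPL27B at 398 to 450.5 CPM in spt6-R and at 788 to 828 CPM in WT.

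Ribosomal genes made up the largest set of falls among the lists. Falls were called for 70 of 137 genes of cytosolic ribosomal proteins and rises for none, and all 137 had negative log2 fold changes, with a median of -0.40. Over all genes tested 2943 had negative fold changes and 4.47% fell. In each library these genes together held 141934, 136575 and 140055 CPM in spt6-R, against 177216, 178562 and 179600 CPM in WT. The count of 70 was 39 without WT replicate 3, 27 without WT replicate 2, 26 without spt6-R replicate 2 and 28 without spt6-R replicate 3. In all 6 fits 24 stayed called, and a fit of only the 6 libraries compared called 122. The median lay between -0.43 and -0.39 in those fits.

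RPL27B (YDR471W), a large-subunit protein gene, had 450.5, 399 and 398 CPM in spt6-R, against 788, 828 and 792 CPM in WT (log2 fold change -0.95 ± 0.12, adjusted p = 3.82e-05). It had the smallest adjusted p of any gene that fell. RPL36A had 152, 153 and 149.9 CPM in spt6-R, against 275, 287 and 260.1 CPM in WT (-0.85 ± 0.14, adjusted p = 0.000838). RPL34A had 377, 382 and 359 CPM in spt6-R, against 626, 650.5 and 636 CPM in WT (-0.78 ± 0.11, adjusted p = 0.000208). All 3 were kept in all 6 fits. Most yeast ribosomal proteins are encoded by a pair of near-identical genes, so the split of a change between such copies is uncertain. Among pairs with both copies called in all 6 fits, RPL27A fell by 0.54 and RPL27B by 0.95, RPL36B by 0.55 and RPL36A by 0.85, and RPL22A by 0.55 and RPL22B by 0.76 on the log2 scale.

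Of 70 ribosome biogenesis genes, which build and mature the ribosomal RNA and the precursors of both subunits, 37 fell and none rose. All 70 had negative log2 fold changes and the median was -0.53. In each library these genes summed to 11396, 11551 and 11665 CPM in spt6-R, against 13125, 16166 and 17835 CPM in WT. The count was 7 without WT replicate 2, 5 without WT replicate 3, 24 without spt6-R replicate 1, 8 without spt6-R replicate 2 and 7 without spt6-R replicate 3, against 50 without WT replicate 1. In all 6 fits 5 of the 37 stayed called, and the median lay between -0.66 and -0.43. ALB1, which encodes a shuttling factor of the large-subunit precursor, had 40.6, 42.8 and 37.2 CPM in spt6-R, against 70.4, 78.0 and 74.7 CPM in WT (-0.89 ± 0.13, adjusted p = 0.000315, called in all 6 fits). NOP15, a nucleolar factor of the large subunit, had 29.3, 26.3 and 31.9 CPM in spt6-R, against 47.4, 63.4 and 61.7 CPM in WT (-0.98 ± 0.26, adjusted p = 0.0261). Without WT replicate 2 its adjusted p was 0.114, and its call was kept only without WT replicate 1. LTV1, which acts in export of the small subunit, had 29.7, 28.5 and 30.4 CPM in spt6-R, against 45.6, 54.5 and 64 CPM in WT (-0.88 ± 0.22, adjusted p = 0.0175). The call was lost without spt6-R replicate 2 (0.076), spt6-R replicate 3 (0.0596), WT replicate 2 (0.0696) or WT replicate 3 (0.0839).

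Many ribosome biogenesis genes share the promoter elements PAC and RRPE, and the promoters of 4 members that fell are printed to show them. They are the 250 bases before the start codon in the R64 genome, written 5′ to 3′ on the coding strand, with every match to PAC and RRPE in capitals. PAC was searched as GATGAG, which reads CTCATC on the opposite strand. RRPE was searched as AAAAATTT, which reads AAATTTTT on the opposite strand. They come from chrX:189466-189715 (plus strand) for ALB1, chrXIV:418489-418738 (minus strand) for NOP15, chrXI:176531-176780 (plus strand) for LTV1 and chrXVI:469689-469938 (plus strand) for NOP4, which encodes a nucleolar RNA-binding protein.
ALB1: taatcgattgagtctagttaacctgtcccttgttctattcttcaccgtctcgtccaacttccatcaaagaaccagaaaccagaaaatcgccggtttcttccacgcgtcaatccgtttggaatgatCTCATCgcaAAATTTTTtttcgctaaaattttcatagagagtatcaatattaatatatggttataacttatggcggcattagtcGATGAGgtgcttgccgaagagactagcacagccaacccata
NOP15: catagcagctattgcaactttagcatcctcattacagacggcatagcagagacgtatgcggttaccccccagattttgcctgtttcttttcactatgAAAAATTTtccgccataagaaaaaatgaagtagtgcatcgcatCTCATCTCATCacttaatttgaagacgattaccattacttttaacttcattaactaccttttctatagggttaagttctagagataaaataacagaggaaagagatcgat
LTV1: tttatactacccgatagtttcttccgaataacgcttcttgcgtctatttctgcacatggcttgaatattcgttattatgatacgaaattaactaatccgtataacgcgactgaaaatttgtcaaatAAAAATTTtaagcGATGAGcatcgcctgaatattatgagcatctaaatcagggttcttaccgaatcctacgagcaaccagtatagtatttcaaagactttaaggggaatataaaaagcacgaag
NOP4: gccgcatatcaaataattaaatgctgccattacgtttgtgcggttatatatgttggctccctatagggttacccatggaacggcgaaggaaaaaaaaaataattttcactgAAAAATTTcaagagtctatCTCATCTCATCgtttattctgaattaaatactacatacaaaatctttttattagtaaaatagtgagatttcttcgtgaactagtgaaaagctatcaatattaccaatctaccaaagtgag

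In NOP15 and NOP4 the PAC letters stood as an overlapping pair, downstream of the RRPE letters. PAC letters were in the window of 66 of the 70 ribosome biogenesis genes (94.3%) and RRPE letters in 61 (87.1%). Over the windows of 5473 tested protein-coding genes the shares were 16.6% for PAC and 14.3% for RRPE. Among all genes that fell, PAC letters were in 104 of 249 windows (41.8%) and RRPE letters in 108 (43.4%). Without the ribosomal protein and ribosome biogenesis lists they were in 60 of 142 (42.3%) and 68 of 142 (47.9%). The list of 70 does not hold every ribosome biogenesis gene, so these 142 still include some. The ribosomal protein genes had them in 10.2% and 11.7% of windows. Among genes that rose PAC letters were in 27 of 219 windows and RRPE letters in 22. A match is a description of letters in this window.

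Other genes of protein synthesis fell too. Beside 4.47% of all genes tested, 6 of 35 translation factors fell and none rose, with a median of -0.29. The count was 3 in each fit that left out 1 library other than WT replicate 1, without which it was 8. In a fit of only the 6 libraries compared it was 19. SUI1, which encodes initiation factor eIF1, had 119, 126 and 112 CPM in spt6-R, against 182, 211 and 177 CPM in WT (-0.67 ± 0.12, adjusted p = 0.00302). EFB1, which encodes the exchange factor of elongation factor eEF1A, had 1367, 1123 and 1182 CPM in spt6-R, against 1892, 1983 and 1815 CPM in WT (-0.63 ± 0.12, adjusted p = 0.00302). RPG1, a subunit gene of initiation factor eIF3, fell by 0.62 ± 0.12 (adjusted p = 0.00358). These 3 were called in all 6 fits. Of 63 mitochondrial ribosomal protein genes 1 fell, MRPL37, by 0.77 (adjusted p = 0.0427). Of the 63, 58 had negative and 5 had positive fold changes, and the median was -0.20. The count that fell was 3 without spt6-R replicate 1 and 0 without any other library. By edgeR 0 of 44 amino acid synthesis genes were called, with 2 at an unadjusted p under 0.05, and 0 of 33 proteasome genes, with 1 at an unadjusted p under 0.05. DESeq2 also called 0 in both lists.

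**Figure D3:**
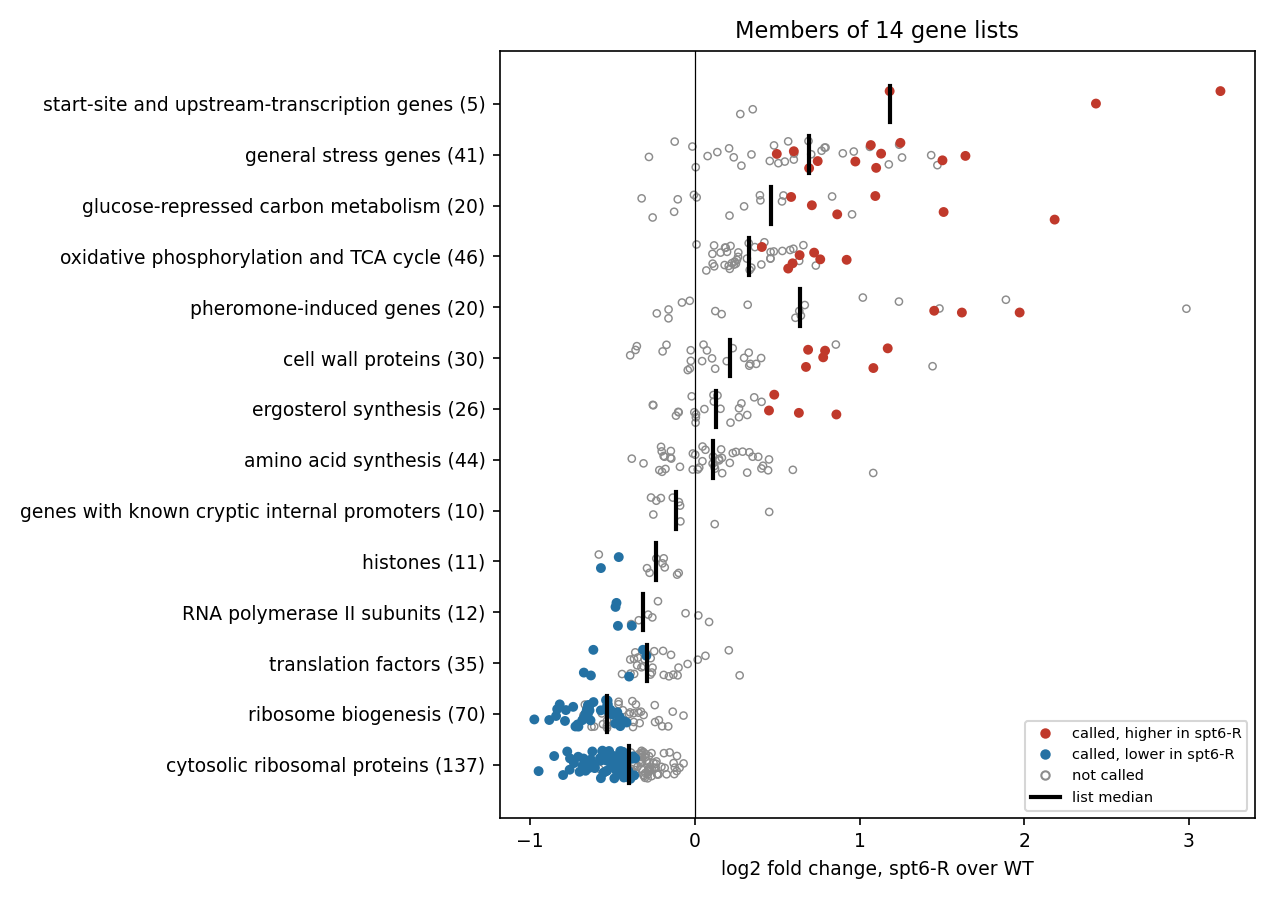
Log2 fold change of spt6-R over WT (horizontal axis) for the tested members of 14 gene lists (rows, with the number of members), 1 point per gene. Filled points were called and the black bar is the list's median, which is -0.40 for cytosolic ribosomal proteins and -0.53 for ribosome biogenesis at the bottom, and 0.69 for general stress genes near the top.

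Genes of the general stress response were among the rises. Of 41 measured, 11 rose and none fell, 38 had positive fold changes, and the median was 0.69. Over all genes tested 4.02% rose and 2674 of 5618 had positive fold changes. The count of stress genes that rose was 3 without WT replicate 2, 4 without WT replicate 3, 3 without spt6-R replicate 2 and 5 without spt6-R replicate 3. By mid-gene counts it was 6. In all 6 fits YGP1, GAD1 and GPH1 stayed called. YGP1, which encodes a secreted glycoprotein induced by nutrient limitation, had 619, 519 and 482 CPM in spt6-R, against 230.3, 145 and 143 CPM in WT (1.64 ± 0.30, adjusted p = 0.00302). GAD1, glutamate decarboxylase, had 44.9, 68.7 and 50.2 CPM in spt6-R, against 28.6, 12.4 and 28.2 CPM in WT (1.25 ± 0.25, adjusted p = 0.00447). GPH1, glycogen phosphorylase, averaged 31.3 ± 12.2 CPM in spt6-R and 14.8 ± 0.888 CPM in WT (SD, n = 3 each), with a log2 fold change of 1.07 ± 0.21 (adjusted p = 0.00358). GLC3, the glycogen branching enzyme, shows how a single library weighed. It had 15.7, 55.3 and 24.9 CPM in spt6-R and 18, 9.58 and 15.9 CPM in WT, and the groups overlap. Its call (1.13 ± 0.35, adjusted p = 0.0476) was lost without spt6-R replicate 2 (0.408), spt6-R replicate 3 (0.0703), WT replicate 2 (0.237) or WT replicate 3 (0.104). SPI1, a cell wall protein gene, had 24.5, 44.9 and 20.6 CPM in spt6-R, against 11.3, 8.16 and 12.3 CPM in WT (1.5 ± 0.38, adjusted p = 0.0189). Its call was lost without spt6-R replicate 2 (0.131), WT replicate 2 (0.112) or WT replicate 3 (0.0525).

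The stress response element STRE, searched as AGGGG, which reads CCCCT on the opposite strand, is bound by the stress activators Msn2 and Msn4. The 250 bases before GAD1 in the R64 genome, chrXIII:770551-770800 on the plus strand, hold 1 match, in capitals. They are printed as the example of a stress gene that rose and was called in all 6 fits.
GAD1: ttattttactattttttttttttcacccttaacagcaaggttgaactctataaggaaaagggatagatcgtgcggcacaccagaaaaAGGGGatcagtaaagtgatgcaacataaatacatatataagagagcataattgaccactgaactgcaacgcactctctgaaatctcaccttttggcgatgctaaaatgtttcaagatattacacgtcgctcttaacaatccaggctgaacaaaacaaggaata

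STRE letters were in the windows of 28 of the 41 stress genes (68.3%), against 19.1% of the windows of all tested protein-coding genes. Among all genes that rose they were in 74 of 219 windows (33.8%), and without the stress list in 67 of 208 (32.2%). Among genes that fell the share was 12.9%. The share in the list of 41 does not depend on spt6-R. That list need not hold every stress gene, so the 208 may still include some. A match describes letters in this window only.

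Of 20 measured genes that glucose represses 6 rose and none fell, with a median of 0.46, while 4.02% of all genes tested rose. ALD4, the mitochondrial aldehyde dehydrogenase, had 202, 312 and 312 CPM in spt6-R, against 163, 105 and 119 CPM in WT (1.10 ± 0.25, adjusted p = 0.0133). CAT8, which encodes an activator of these genes, had 9.46, 18.2 and 9.37 CPM in spt6-R, against 5.56, 3.14 and 4.10 CPM in WT (1.51 ± 0.41, adjusted p = 0.0285). Neither was kept in all fits: ALD4 was lost without WT replicate 2 (0.0906), WT replicate 3 (0.0644), spt6-R replicate 2 (0.0667) or spt6-R replicate 3 (0.0614), and CAT8 without WT replicate 2 (0.151), WT replicate 3 (0.0883) or spt6-R replicate 2 (0.168). The list's count was 1 without WT replicate 2, WT replicate 3 or spt6-R replicate 2, and 2 without spt6-R replicate 3. By mid-gene counts it was 3. The 1 member called in all 6 fits was ADH2, which also had the list's largest log2 fold change (2.19). By mid-gene counts ADH2 had -0.14, and its value is uncertain, as described below.

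All 46 genes of oxidative phosphorylation and the citric acid cycle had positive log2 fold changes, with a median of 0.33, and 7 of them rose. Over all genes tested 4.02% rose and 2674 of 5618 had positive fold changes. NDI1, the internal NADH dehydrogenase of yeast mitochondria, had 135, 166 and 151 CPM in spt6-R, against 101, 63.0 and 73.6 CPM in WT (0.92 ± 0.22, adjusted p = 0.0161). Its adjusted p was 0.104 without WT replicate 2, 0.0701 without WT replicate 3, 0.0762 without spt6-R replicate 2 and 0.054 without spt6-R replicate 3. SDH2, CIT1, LSC1, ATP20, QCR2 and KGD1 rose by between 0.41 and 0.76. The list's count was 0 without WT replicate 2, WT replicate 3, spt6-R replicate 2 or spt6-R replicate 3, and 2 without spt6-R replicate 1. It was 22 in a fit of only the 6 libraries compared. The median lay between 0.26 and 0.43 in the 6 fits.

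Single genes of metabolism rose with little spread between libraries. BIO2, biotin synthase, had 88.3, 101 and 92.9 CPM in spt6-R, against 19.1, 22 and 25.5 CPM in WT (2.09 ± 0.19, adjusted p = 5.42e-07). It was chosen after its value was seen. The biotin transporters VHT1 (0.58 ± 0.28, adjusted p = 0.206) and BIO5 (1.24 ± 0.47, adjusted p = 0.102) did not pass. MET3, ATP sulfurylase of sulfate assimilation, had 105, 108 and 109 CPM in spt6-R, against 34.4, 33.1 and 36.7 CPM in WT (1.63 ± 0.11, adjusted p = 6.98e-09). The libraries within each strain differed by a few CPM. Of 27 genes of methionine and sulfur assimilation, MET3 included, 2 rose and 1 fell, and the median was -0.02. Over all genes tested 4.02% rose and 4.47% fell.

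ELO1, a fatty acid elongase, had 409, 474 and 503 CPM in spt6-R, against 205, 170.0 and 157 CPM in WT (1.38 ± 0.17, adjusted p = 3.66e-05). PDC5, the minor pyruvate decarboxylase, had 65.7, 67.8 and 66.5 CPM in spt6-R, against 25.9, 27.5 and 19.8 CPM in WT (1.44 ± 0.21, adjusted p = 0.000386). PHO3, a secreted acid phosphatase repressed by thiamine, had 1121, 995 and 1067 CPM in spt6-R, against 513, 518 and 466 CPM in WT (1.09 ± 0.12, adjusted p = 2.21e-05). In these 3 genes every spt6-R library exceeded every WT library, and the calls were kept in all 6 fits.

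Of 26 genes of ergosterol synthesis 4 rose and none fell, with a median of 0.13, while 4.02% of all genes tested rose. MVD1, which makes isopentenyl diphosphate, had 943, 1003 and 1098 CPM in spt6-R, against 568, 550.4 and 559.9 CPM in WT (0.86 ± 0.12, adjusted p = 0.000208). ERG9, squalene synthase, had 632, 692 and 692 CPM in spt6-R, against 436, 419 and 446 CPM in WT (0.63 ± 0.09, adjusted p = 0.00038). Both were kept in all 6 fits, while ERG10 (0.48) and ERG2 (0.45) were not. Without WT replicate 2, WT replicate 3, spt6-R replicate 2 or spt6-R replicate 3 the list's count was 2, and in a fit of only the 6 libraries compared it was 9. YPC1, a ceramidase, had 36.1, 73.0 and 67.7 CPM in spt6-R, against 17.6, 10.05 and 15.7 CPM in WT (2.03 ± 0.35, adjusted p = 0.00154, called in all 6 fits). Beside 4.02% of all genes tested, 6 of 30 cell wall protein genes rose and none fell. That count was 0 without WT replicate 2, 2 without WT replicate 3, 1 without spt6-R replicate 2 and 2 without spt6-R replicate 3, and 12 in a fit of only the 6 libraries compared.

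Mating genes rose in part. MFA1, an a-factor gene, had 206, 193 and 158 CPM in spt6-R, against 71.7, 63.3 and 44.9 CPM in WT (1.62 ± 0.26, adjusted p = 0.000912). AGA1, the anchor of the a-agglutinin, had 96.0, 72.2 and 63.8 CPM in spt6-R, against 29.8, 26.7 and 18.2 CPM in WT (1.62 ± 0.27, adjusted p = 0.00122). FIG2, a cell wall protein of mating cells, had 46.0, 40.8 and 28.3 CPM in spt6-R, against 17, 13.3 and 11.2 CPM in WT (1.45 ± 0.31, adjusted p = 0.00733). These 3 were called in all 6 fits, and in each the spt6-R replicate 1 library was the highest. Beside 4.02% of all genes tested, 3 of 20 tested pheromone-induced genes rose and none fell, with a median of 0.64. That count was 5 by mid-gene counts, 7 by DESeq2 and 8 in a fit of only the 6 libraries compared. Of 7 a-specific genes MFA1, STE2 and MFA2 rose. The a-specific count was 2 without spt6-R replicate 1 and 1 without any other library. STE2, the receptor for alpha factor, had 981, 879 and 915 CPM in spt6-R and 616, 652 and 642 CPM in WT (0.54 ± 0.15, adjusted p = 0.0351), a call lost in each of the 6 fits at adjusted p-values up to 0.112.

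Of 3 alpha-specific genes 2 rose, from low levels in WT. STE3, the a-factor receptor of alpha cells, had 5.61, 6.52 and 5.59 CPM in spt6-R, against 2.86, 0.785 and 1.14 CPM in WT (1.83 ± 0.40, adjusted p = 0.00843). MF(ALPHA)2 had 6.89, 3.72 and 3.78 CPM in spt6-R, against 0.451, 1.41 and 0.456 CPM in WT (2.56 ± 0.57, adjusted p = 0.0107). The STE3 call was lost without WT replicate 2 (0.075) and that of MF(ALPHA)2 without WT replicate 3 (0.0524). Whether a few cells of the other type were present was not tested.

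Genes outside protein synthesis fell as well. HO, the endonuclease of mating-type switching, had 33.8, 22.3 and 25.5 CPM in spt6-R, against 49.5, 59.2 and 51.0 CPM in WT (-0.96 ± 0.18, adjusted p = 0.00302). CAR2, ornithine transaminase of arginine breakdown, had 74.9, 80.8 and 86.3 CPM in spt6-R, against 155, 159 and 143 CPM in WT (-0.91 ± 0.15, adjusted p = 0.00107). Both were kept in all 6 fits. FLO11, a surface flocculin of adhesion and filamentous growth, had 121, 196 and 148 CPM in spt6-R, against 218, 467 and 319 CPM in WT (-1.11 ± 0.28, adjusted p = 0.0189). It was the largest called fall, and it was lost without spt6-R replicate 1 (0.0639), spt6-R replicate 3 (0.076), WT replicate 2 (0.151) or WT replicate 3 (0.0526). BRR6, a nuclear envelope protein gene, fell by 1.03 ± 0.28 (adjusted p = 0.0283), a call kept without WT replicate 1 and without WT replicate 3.

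Small nucleolar RNAs mostly guide modification of ribosomal RNA. Their list was taken by name, as snR plus a number and NME1, so not every member is such a guide. Of its 78 tested members 6 rose and 2 fell, with a median of 0.04. Over all genes tested 4.02% rose and 4.47% fell. snR77 had 28.4, 40.2 and 36 CPM in spt6-R, against 9.78, 10.2 and 8.20 CPM in WT (1.88 ± 0.29, adjusted p = 0.000488). snR38 had 24.7, 30.0 and 30.4 CPM in spt6-R, against 10.4, 11.5 and 7.29 CPM in WT (1.52 ± 0.26, adjusted p = 0.00147). snR53 rose by 2.25 ± 0.41 (adjusted p = 0.00258) at low levels, with 4.01, 5.21 and 4.84 CPM in spt6-R and 0.752, 1.57 and 0.456 CPM in WT. These 3 were called in all 6 fits. snR77 and snR78 (1.90 ± 0.42, adjusted p = 0.00924, lost without spt6-R replicate 3 at 0.0537 or WT replicate 2 at 0.0762) lie in a cluster with snR72 to snR76, from which the RNase III enzyme Rnt1 is known to free them. None of snR72 to snR76 was called. RNT1 had 15.1, 11.4 and 14.1 CPM in spt6-R, against 19.3, 30.1 and 25.3 CPM in WT (-0.88 ± 0.24, adjusted p = 0.0294), a call lost without spt6-R replicate 2 (0.136), spt6-R replicate 3 (0.082), WT replicate 2 (0.17) or WT replicate 3 (0.084). RNT1 and its cluster were looked at after their values were seen.

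Calls in other lists were few, beside 4.02% of all genes tested that rose and 4.47% that fell. DUR3, a urea and polyamine transporter gene, had 27.1, 19.7 and 19.9 CPM in spt6-R, against 10.7, 9.73 and 11.4 CPM in WT (1.08 ± 0.16, adjusted p = 0.000398), within 26 genes of nitrogen source use of which 3 rose and 1 fell. UBI4, the polyubiquitin gene, had 47.3, 60.9 and 48.8 CPM in spt6-R, against 28.6, 23.2 and 35.3 CPM in WT (0.86 ± 0.16, adjusted p = 0.00358). The groups were separate for both, and both calls were kept in all 6 fits. Of 30 heat shock proteins and chaperones none rose and HCH1, a regulator gene of Hsp90, fell by 0.51 (adjusted p = 0.00843), a call lost without spt6-R replicate 2 (0.0626) or WT replicate 2 (0.0566).

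TRP1, a tryptophan synthesis gene often used as a strain marker, had 20.5, 19.2 and 23.9 CPM in spt6-R, against 0.902, 0.628 and 0.683 CPM in WT (4.80 ± 0.25, adjusted p = 7.43e-11). The WT libraries held 6, 4 and 3 reads of it. Strain markers are not labelled, so a marker difference and an effect of spt6-R cannot be told apart. Its level in spt6-KK averaged 21.8 CPM and in rpb1-FSP 19.9 CPM.

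Counts of sense reads over the middle of each gene gave close to the same picture. They come from the same libraries and from part of the same genes, so the likeness is not an independent check. By mid-gene counts 403 of 5667 genes were called (7.11%), 210 that rose (3.71%) and 193 that fell (3.41%). They shared 377 calls in the same direction with the whole-gene counts, which is 79.0% of the whole-gene calls and 93.5% of the mid-gene calls. Of 476 called genes tested both ways, 475 had the same sign, and the median absolute difference of the log2 fold changes was 0.03. The exception was ADH2, the glucose-repressed alcohol dehydrogenase. By whole-gene counts it had 58.0, 48.2 and 47.4 CPM in spt6-R, against 10.7, 13.7 and 9.11 CPM in WT (2.19 ± 0.33, adjusted p = 0.000398). By mid-gene counts it had 256, 234 and 270.4 CPM in spt6-R and 281, 294 and 264 CPM in WT, which overlap (-0.14, adjusted p = 0.685). ADH2 is close in sequence to the abundant ADH1, and its mid-gene level exceeds its whole-gene level, so its value is uncertain. The 7 called genes whose fold changes differed by more than 0.5 between the counts were ADH2, GAL10, THI13, TRP1, DIT2, PHO12 and snR78.

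A test of the mid-gene level relative to the whole-gene level called 1 of 5343 genes (0.0187%), ADH2 again, at -2.26 ± 0.30 (limma, adjusted p = 0.00485). At an unadjusted p under 0.05 there were 461 genes, or 8.63%. The count depended on setting the median of each library to 0: without that centring 3972 genes were called. Levels in this test were scaled to raw library totals, which include ribosomal RNA. In the mid-gene counts that took between 3.40% and 6.21% in spt6-R and between 7.10% and 19.1% in WT. Its effect on the count without centring was not tested. The ADH2 call was lost without spt6-R replicate 1, where 0 genes were called, and 2 genes were called without spt6-R replicate 3 or WT replicate 3. This comparison of windows within a gene followed the gene-level one because extra initiation or early termination would change where in a gene reads lie. The middle of a gene lies within the whole gene, so both counts share many reads. The mid-gene counts were also limited to sense reads, so a difference can reflect strand as well as position. The test could therefore miss a shift within a gene, and so few calls do not show that none occurred.

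**Figure D4:**
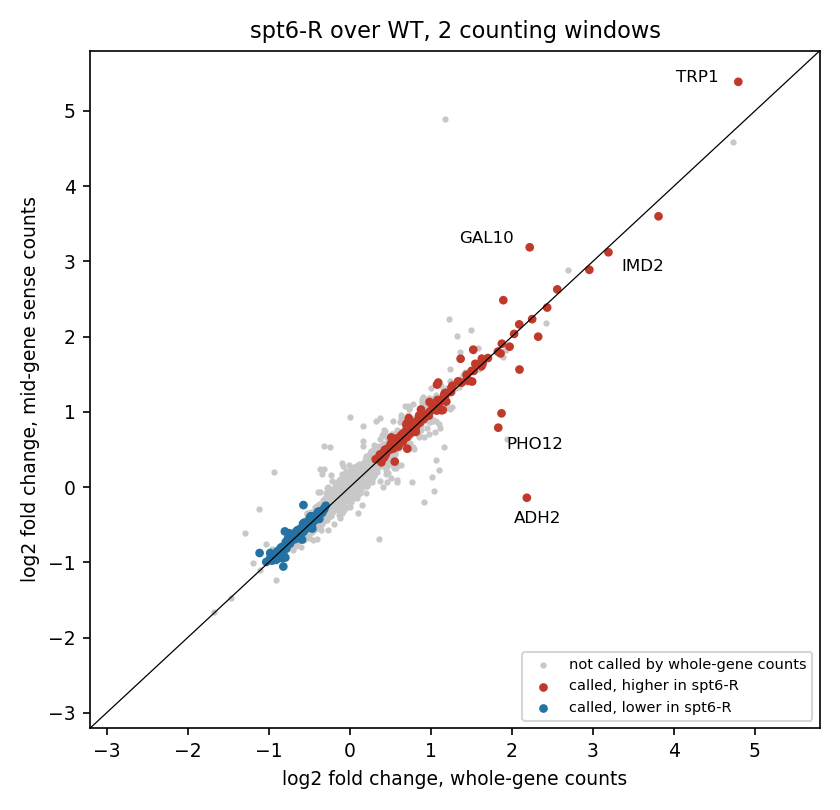
Log2 fold change of spt6-R over WT by mid-gene sense counts (vertical axis) against that by whole-gene counts (horizontal axis), 1 point per gene tested both ways, with the line of equality. Called genes lie along the line except a few, of which ADH2 lies at 2.19 by whole-gene and -0.14 by mid-gene counts.

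The number of differences called between spt6-R and the other SPT6 allele changed widely when 1 library was left out. Between spt6-R and spt6-KK 273 genes were called (4.86%), 69 higher (1.23%) and 204 lower (3.63%) in spt6-R. The count was 11 without spt6-R replicate 1, 0 without spt6-R replicate 2, 1 without spt6-R replicate 3, and 778, 0 and 0 without spt6-KK replicates 1, 2 and 3. With the replicate number as a block it was 434. The fits that left out 1 library had no such block. On the second principal component spt6-KK replicate 1 lay at 0.92, apart from its replicates at -19.8 and -19.9. FLO11 averaged 155 CPM in spt6-R, against 40.3 CPM in spt6-KK, and its difference of 1.94 ± 0.29 on the log2 scale (adjusted p = 0.00937) was kept in 3 of the 6 fits that left out 1 of these libraries, with adjusted p-values up to 0.0968. Ribosome biogenesis genes were lower in spt6-R for 16 of 70 and higher for none, with a median difference of -0.34. NOP15 averaged 29.2 CPM in spt6-R, against 65.3 CPM in spt6-KK (-1.16 ± 0.26, adjusted p = 0.0383), and CGR1, another nucleolar factor gene, 8.93 CPM in spt6-R, against 21.7 CPM in spt6-KK (-1.29 ± 0.27, adjusted p = 0.0359). Both were called in 1 of the 6 fits, with adjusted p-values up to 0.175. The ribosomal protein genes had a median difference of -0.01 with 2 of 137 lower. IMD2 averaged 354 CPM in spt6-R and 373 CPM in spt6-KK, a difference of -0.07 ± 0.16 (adjusted p = 0.788), and SER3 803 CPM in spt6-R and 829 CPM in spt6-KK, a difference of -0.05 ± 0.27 (adjusted p = 0.926).

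Between spt6-R and rpb1-FSP 2 genes were called (0.0356%), both higher in spt6-R, while 316 genes (5.62%) had an unadjusted p under 0.05 and DESeq2 called 4. With the replicate number as a block 4 were called. BPL1, biotin protein ligase, averaged 131 CPM in spt6-R, against 70.2 CPM in rpb1-FSP (0.90 ± 0.13, adjusted p = 0.00435). In WT it averaged 119 CPM, and spt6-R did not differ from WT by the test (0.13 ± 0.13, adjusted p = 0.54). BPL1 is a neighbour of RPO21, the gene altered in rpb1-FSP, and an effect of that locus on BPL1 was not tested. MET3 averaged 107 CPM in spt6-R, against 65.1 CPM in rpb1-FSP (0.72 ± 0.11, adjusted p = 0.00447). Without rpb1-FSP replicate 2 neither was called (both adjusted p = 0.077), and without rpb1-FSP replicate 3 only BPL1 was. IMD2 averaged 354 CPM in spt6-R and 289.8 CPM in rpb1-FSP, a difference of 0.29 ± 0.16 (adjusted p = 0.868). General stress genes had a median difference of 0.43 with none of 41 called. A difference that misses the threshold does not show that the strains act alike.

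**Figure D5:**
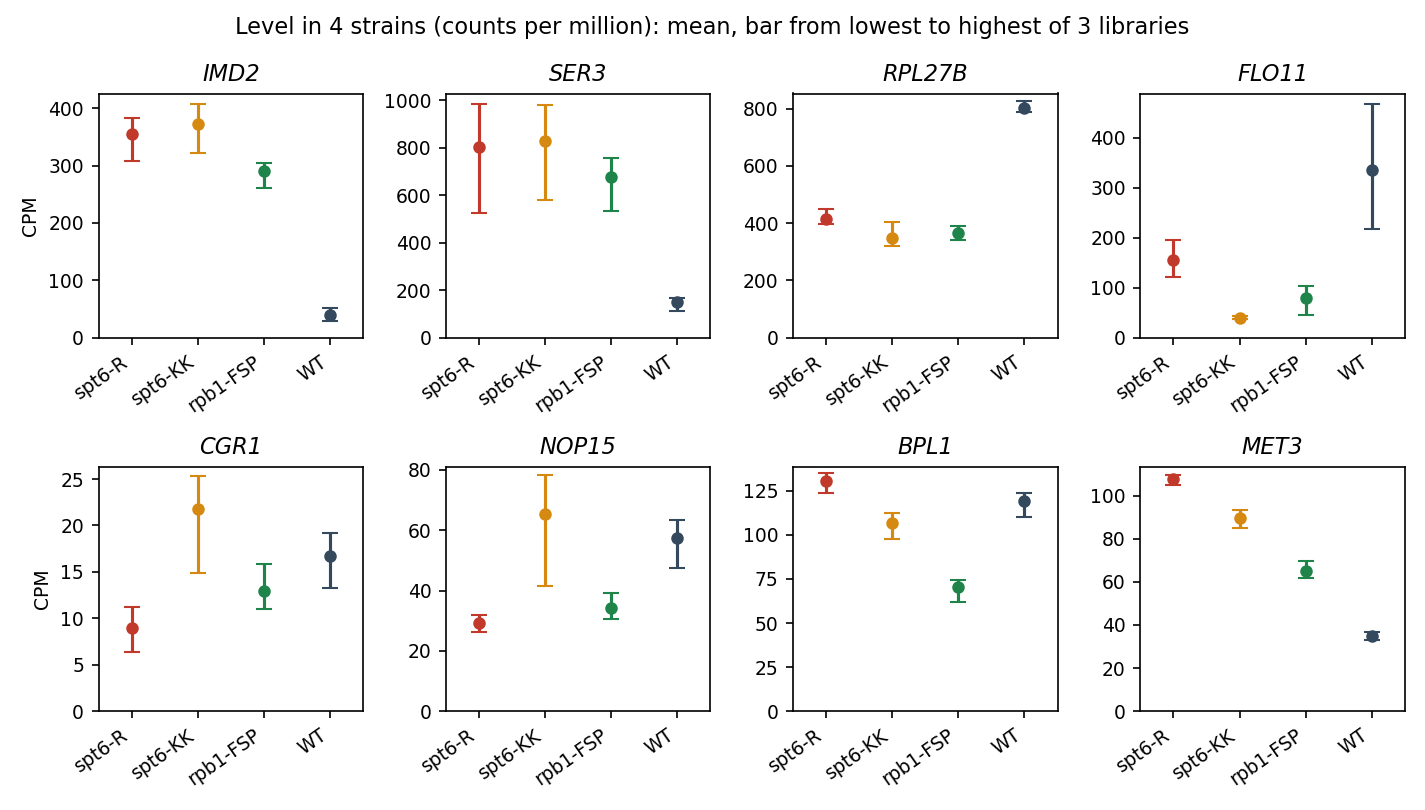
Level of 8 genes (CPM, vertical axis from 0) in spt6-R, spt6-KK, rpb1-FSP and WT, left to right, as the mean with a bar from the lowest to the highest of 3 libraries. IMD2 and SER3 are high in the 3 mutants and low in WT, FLO11 averages 155 CPM in spt6-R against 40.3 CPM in spt6-KK, and BPL1 averages 131 CPM in spt6-R against 70.2 CPM in rpb1-FSP.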

How the data were processed

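RNA from the 6 libraries of spt6-R and WT, and from 3 libraries each of spt6-KK and rpb1-FSP, was analysed from the deposited raw counts per gene. Per the submitters' processing notes the tools were cutadapt 1.16, STAR 2.6.1b, featureCounts 1.6.3 of Subread and DESeq2 1.22.2, with build R64. The authors deposited counts over whole genes (5823 genes) and sense counts over the middle of genes (5894 genes). How reads with several matches were counted is not given in the sources used here. Libraries held 4860861 to 7231414 whole-gene reads and 5768825 to 7455256 mid-gene reads.

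Differences were tested with edgeR 4.0.16 in R 4.3.3, with filterByExpr, TMM scaling and the quasi-likelihood test in 1 model of all 21 libraries with strain as its term. The call threshold was a Benjamini-Hochberg adjusted p of 0.05. The filter left out 205 genes, and the biological coefficient of variation was 0.154. CPM used TMM-scaled library sizes, except in the mid-gene share, where raw library totals were used. For the mid-gene share, limma 3.58.1 was run on log2 CPM of mid-gene minus whole-gene counts, with a pseudocount of 1, a mean of at least 20 counts and each library's median set to 0. DESeq2 1.42.0, other scaling, filters, left-out libraries and a replicate block were alternatives. Replicate numbers were checked by the correlation of same-numbered libraries' deviations from their strain means. These were 0.41, 0.38 and 0.23 between spt6-R and spt6-KK and 0.38, 0.22 and 0.23 between spt6-R and rpb1-FSP, so by a minimum of 0.1 the numbers pair those libraries; the labels do not say what a number shares.

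Named genes were SPT6 and RPO21, the 15 largest called rises and falls against WT with a mean of at least 20 counts in a strain and no overlap, the 5 largest against each other strain, the 3 with the smallest adjusted p each way, up to 4 called members per list and all members of lists of at most 12. Members and lists were chosen with earlier results of these data known. RNT1, the snR72 cluster, BIO2, BIO5, VHT1, BPL1 against WT, SPN1, IMD3, IMD4, SER33, GPH1, neighbours of SPT6 ribosomal copies named as pairs and PMA2 were chosen after their values were seen. Motifs were searched on both strands in the 250 bases before the start codon.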

Additional observations from a re-analysis of the deposited data

Results flagged for a closer look

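Direct contrasts by edgeR called 273 genes between spt6-R and spt6-KK and 2 between spt6-R and rpb1-FSP. Those given here were also called against WT and were named for a large change or a small adjusted p. Differences are on the log2 scale. FLO11 was higher in spt6-R than in spt6-KK by 1.94, and CAR2 by 0.53. Genes of nucleolar work were lower in spt6-R than in spt6-KK: the differences were -1.29 for CGR1, -1.16 for NOP15, -1.11 for POP4, an RNase P and MRP subunit, -0.93 for BMT5, a ribosomal RNA methyltransferase, and -0.85 for RRT14. MET3 was higher in spt6-R than in rpb1-FSP by 0.72. The number of genes that differed from spt6-KK was 0 without spt6-R replicate 2, spt6-KK replicate 2 or spt6-KK replicate 3.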

How the results depend on the processing

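The counts of genes and list members called are the results that moved most. Genes changed against WT numbered 477, and 110 to 489 when 1 library was left out, with 59 to 226 that rose, 51 to 281 that fell and 65 to 192 list members called, against 205. A fit of only the 6 libraries compared called 902 genes, 453 that rose and 449 that fell, with 374 list members. Leaving out both WT replicate 3 and spt6-R replicate 1, chosen after seeing the data, called 213, 117 that rose and 96 that fell, with 87 list members. Against spt6-KK the 273 calls became 155 by mid-gene counts, 492 by DESeq2, 670 with only the 6 libraries and 0 to 778 without 1 library. Against rpb1-FSP the 2 calls became 4 by DESeq2, 9 with only the 6 libraries and 0 to 2 without 1 library. The mid-gene share called 1 gene, 3 at a mean of at least 100 counts, 3972 without centring and 0 to 2 without 1 library. ADH2 reversed to -0.14 by mid-gene counts. Against WT, DESeq2 (581), RLE size factors (462), no filter (450), a mean of at least 50 counts (465) and mid-gene counts (403) stayed within 1.5 times the count. Why the counts moved was not tested. With the replicate number as a block there were 607 calls against WT, 434 against spt6-KK and 4 against rpb1-FSP. Deviations of same-numbered spt6-R and WT libraries correlated at -0.15, -0.42 and 0.11, and not every library correlated best with its own number, so the numbers do not pair these 2 strains. With the block FLO11, CGR1 and NOP15 were still called against spt6-KK, and BPL1 and MET3 against rpb1-FSP. Depth limits what can be said of genes with a few CPM, such as snR53 and MF(ALPHA)2.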

Other observations

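Genes next to each other on a chromosome were among the 93 that stayed called in all 6 fits that left out 1 library. MVD1 and AGA1, on the plus strand of chromosome XIV with 613 bases between them, rose by 0.86 and 1.62 on the log2 scale. YPR127W and ANT1, which converge on chromosome XVI with 97 bases between them, rose by 1.25 and 0.51. YOR292C and RPS10A, which diverge on chromosome XV with 515 bases between them, moved apart, by 0.89 and -0.50, and RRS1, the next gene on the strand of RPS10A, fell by 0.82. PMA2, a minor plasma membrane proton pump gene, averaged 96.1 ± 11.7 CPM in spt6-R and 32.7 ± 5.49 CPM in WT (SD, n = 3 each), with a log2 fold change of 1.55 (adjusted p = 2.98e-06). These genes were chosen after their values were seen.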
